A study of Mus musculus with 17 samples.

Results

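Reelin signalling genes were examined in mouse dorsal hippocampus as a set of 6 genes chosen by name: the ligand Reln, its receptors Vldlr and Lrp8, and the intracellular adaptors Dab1, Crk and Crkl. All 6 were rows of a count table of 24498 genes, and all 6 passed the filter on low counts in every fit. The set was compared over 6 groups of mice that were wild type (WT) or lacked Acss2 through a constitutive knockout (KO). Acss2 encodes an enzyme that turns acetate into acetyl-CoA, the donor for histone acetylation. The mice had been injected in dorsal hippocampus at 6 months of age with phosphate-buffered saline (PBS) or with pathological tau extracted from the brain of patients with Alzheimer's disease (Tau), into the right side, and tissue was taken 6 months later.

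Males formed 4 groups of 3 libraries, namely WT and KO injected with PBS (male WT PBS and male KO PBS) and WT and KO injected with tau (male WT Tau and male KO Tau, the latter also called the double-hit group). Females were injected with tau alone, as 2 libraries of female WT Tau and 3 of female KO Tau, and the study names males alone as the animals for its bulk RNA sequencing. KO and WT animals were bred from homozygous pairs of the first generation out of heterozygous cages, and the knockout was limited neither to one cell type nor to adulthood. Poly(A) RNA came from slices that held the dentate gyrus with CA1, CA2 and CA3. The sample labels place perfusion with a fixative before the RNA extraction, a step that the study's text gives for histology. Each library is called by the number its label gives. The labels call the libraries biological replicates but do not tie each one to a single animal, so p-values measure the spread between these libraries.

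Reelin is a large secreted glycoprotein. In the developing brain it is released by Cajal-Retzius cells and steers the layering of migrating neurons, and in the adult hippocampus it comes mainly from inhibitory interneurons and modulates synapses. It binds the lipoprotein receptors Vldlr and Lrp8 (also called ApoER2), and Src family kinases, chiefly Fyn, then phosphorylate Dab1, the adaptor docked on the receptor tails. Phosphorylated Dab1 recruits the related adaptors Crk and Crkl, which bring in the exchange factor Rapgef1 and so activate Rap1, and it also engages phosphoinositide 3-kinase and Akt, which restrain Gsk3b, a kinase that phosphorylates tau.

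The genes differ widely in size. In the GENCODE M21 annotation of GRCm38, Reln (ENSMUSG00000042453.14) lies on the minus strand at chr5:21884454-22344702 and Dab1 (ENSMUSG00000028519.16) on the plus strand at chr4:103619359-104744844, each spread over long introns. Lrp8 (ENSMUSG00000028613.14) lies on the same chromosome as Dab1 at chr4:107802261-107876840, and Vldlr (ENSMUSG00000024924.14) at chr19:27216484-27254231. Crk (ENSMUSG00000017776.15) lies at chr11:75679259-75706908 and Crkl (ENSMUSG00000006134.4) at chr16:17451987-17487434, the last 4 all on the plus strand. Merged exons summed to 23.74 kb for Reln, 10.51 kb for Lrp8, 10.07 kb for Vldlr, 7.91 kb for Dab1, 5.04 kb for Crkl and 4.73 kb for Crk. Reads were counted by strand, and no exon base of the 6 genes was shared with another gene on the same strand.

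Promoters of all 6 genes were found in RefSeq (GRCm38.p6), with 10 annotated starts among them. The study scanned regulatory regions for motifs of the RFX family and of RBPJ. The 250 bases before each start were therefore searched on both strands for the letters GTTGCC (a half-site of the X-box bound by RFX proteins), TGGGAA (the core bound by RBPJ), CACGTG (an E-box) and GGGCGG (a GC box). None of these motifs overlapped another in the members' windows. Among 32851 promoter windows of this length, 10.4% held the RFX letters, 21.6% the RBPJ letters, 6.02% the E-box and 32.7% a GC box. The windows below are shown because Reln had the richest promoter in GC boxes and Lrp8 was the member with RFX and RBPJ letters, at its most downstream start. The first is on the minus strand at chr5:22344706-22344955 and reads in the direction of transcription, with GC boxes in capitals. The second is on the plus strand at chr4:107830703-107830952, inside the Lrp8 gene, with the RBPJ letters (read on the opposite strand) and then the RFX letters in capitals.
Reln promoter: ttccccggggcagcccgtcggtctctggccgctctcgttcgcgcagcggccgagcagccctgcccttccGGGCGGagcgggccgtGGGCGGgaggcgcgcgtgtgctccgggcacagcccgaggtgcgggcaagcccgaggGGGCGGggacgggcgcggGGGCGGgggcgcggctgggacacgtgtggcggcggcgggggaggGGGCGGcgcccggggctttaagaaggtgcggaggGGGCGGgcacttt
Lrp8 promoter, downstream start: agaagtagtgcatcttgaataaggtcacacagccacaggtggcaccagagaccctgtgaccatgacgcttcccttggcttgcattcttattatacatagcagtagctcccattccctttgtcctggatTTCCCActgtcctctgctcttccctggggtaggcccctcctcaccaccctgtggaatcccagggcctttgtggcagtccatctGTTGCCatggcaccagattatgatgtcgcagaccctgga
The Reln window held 6 GC boxes and 1 E-box, with 80.0% G and C bases, above 98.8% of all windows (median 52.4%). The other starts held at most 1 GC box each, at Crk, at 1 of the Dab1 starts and at 1 of the Vldlr starts, and the Crkl window held none of the 4 motifs. Letter matches describe the sequence and show nothing of binding in these animals.

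Total counts per library ran from 14183131 to 22463635, which put 3 counts, the limit that a count of 0 allows, at 0.134 to 0.212 CPM (counts per 1000000 counts of the library). This limit covers counting error only, and every member was far above it in every library. The genotype labels were checked with Acss2, which ran from 44.0 to 54.6 CPM in the WT libraries and stayed at or below 8.81 CPM in the KO libraries. Every library held the hippocampal marker lists, for the dentate gyrus and for each of the CA fields, though at unequal levels. The summed dentate markers ran from 141.5 CPM in male KO PBS 752 to 587.9 CPM in male KO PBS 751. The CA3 sum ran from 124.4 CPM in 752 to 364.7 CPM in female KO Tau 324. Library 752 also had the lowest CA1 sum of the males (348.9 CPM), their highest CA2 sum (310.7 CPM) and the highest neocortex sum of all libraries (476.7 CPM). Male KO PBS 752 stood apart in striatal markers (769.6 CPM summed, against 169.1 to 281.0 in the other libraries), male KO Tau 713 in choroid plexus markers (4032 CPM), and male KO Tau 711 in astrocyte markers (2454 CPM, against 978 to 1733 in the other males). The 5 female libraries also differed from the males in many markers, and the labels name no batch, so sex cannot be told apart from anything else that set the female libraries apart.

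Per kilobase of merged exon, the adaptors were the most abundant members and the ligand was the least abundant. Crk had 44.3 ± 6.35 CPM per kilobase (SD over 17 libraries), Dab1 17.05 ± 1.98, Crkl 12.3 ± 0.904, Vldlr 8.98 ± 0.687, Lrp8 7.06 ± 0.454 and Reln 2.56 ± 0.916. Each gene exceeded the next in all 17 libraries, as the plot of length-scaled levels shows. Scaled instead by the longest annotated transcript, Vldlr exceeded Lrp8 in only 10 of 17 libraries and Crkl exceeded Vldlr in 14, so the order of these neighbours depends on which exons are counted, whereas Crk, Dab1 and Reln kept their places in all 17. The receptors were expressed at similar levels to each other, with Vldlr over Lrp8 per kilobase at 1.28 ± 0.128 (SD, n = 17), and Crk exceeded its paralog Crkl 3.6 ± 0.543 times.

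**Figure D1:**
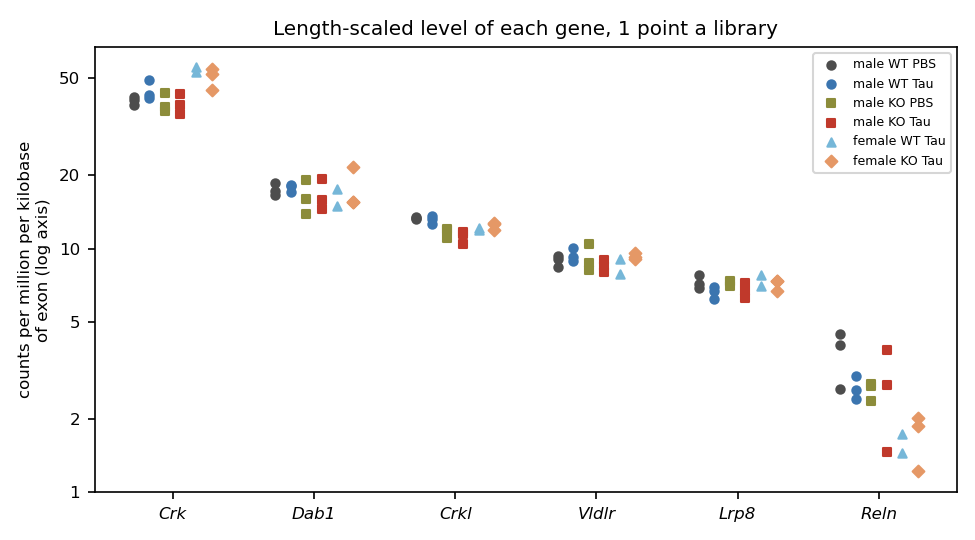
CPM per kilobase of merged exon (log axis) for each member, with 1 point per library, coloured by group. Crk is highest at a mean of 44.3 and Reln lowest at 2.56, and Reln has the widest scatter.

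Reln was by far the most variable member. Its level ran from 29.1 CPM in female KO Tau 324 to 105.8 CPM in male WT PBS 791, a 3.63-fold range, against 1.26-fold for Lrp8, 1.31-fold for Crkl and 1.33-fold for Vldlr. Within groups its SD was 0.395 on the log2 scale, larger than that of 95% of the 2822 genes of like level. Crkl was the opposite: its within-group SD of 0.057 was smaller than that of nearly all 2800 genes of like level, with 0.536% of them lower. The other members had within-group SDs of 0.188 (Dab1), 0.118 (Crk), 0.111 (Vldlr) and 0.0848 (Lrp8).

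**Figure D2:**
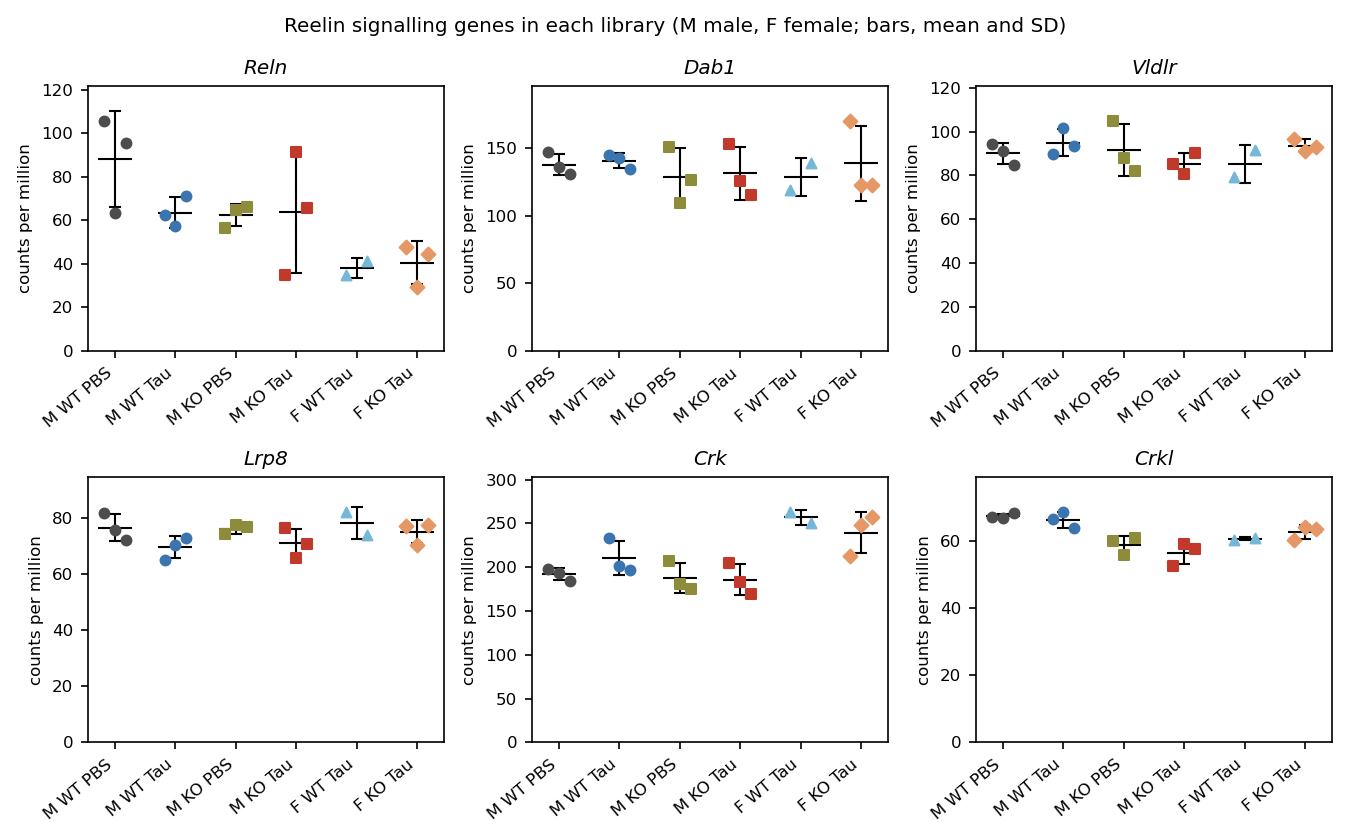
CPM of the 6 genes in each library, by group (M male, F female), with mean and SD. Reln spans 29.1 to 105.8 CPM, the 6 male KO libraries sit below the 6 male WT libraries for Crkl, and the female libraries are low for Reln and high for Crk.

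Across groups the question was whether loss of Acss2, tau, or both altered expression of the pathway. By edgeR's quasi-likelihood test at a false discovery rate (FDR) of 0.05 over all genes tested, 0 of 6 members were called in 10 of the 11 comparisons, and DESeq2 also called 0 of 6 in each of the 10. The background in those comparisons was itself close to nil. It was 0% of 15098 genes for tau in WT males, tau in KO males, the average tau effect in males and the male genotype by treatment interaction, and 0% of 15419 genes for the sex by genotype interaction under Tau. It was 0.00662% (Acss2 alone) for male KO against WT under PBS, for male KO against WT under Tau and for male KO Tau against male WT PBS. It was 0.00649% for female KO against WT and 0.00641% for the genotype effect averaged over the 3 sex and treatment strata, again Acss2 alone. At an unadjusted p under 0.05, 1 member passed in each of 4 of these comparisons, where the background was the share of all genes that passed the same threshold. Crkl passed in the double-hit comparison (background 6.33%), in male KO against WT under Tau (4.71%) and in the sex by genotype interaction (2.94%), and Lrp8 in the average tau effect in males (5.38%). In the other 6 comparisons 0 members passed. There the background was 1.86% for tau in WT males, 7.95% for tau in KO males, 4.42% for male KO against WT under PBS, 4.18% for the male interaction, 2.89% for female KO against WT and 4.18% for the averaged genotype effect. The 11th comparison, female against male under Tau, called 2 of 6 members, Reln and Crk, where 23.8% of 15419 genes were called.

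Reln, the ligand, measured 105.8, 63.3 and 95.6 CPM in male WT PBS (791, 792 and 793) and 62.3, 57.2 and 71.0 CPM in male WT Tau (771, 772 and 773). It measured 56.4, 64.7 and 66.0 CPM in male KO PBS (751, 752 and 753). In male KO Tau it measured 34.8, 91.4 and 65.5 CPM (711, 712 and 713). The control group was thus high in 2 of its 3 libraries and the double-hit group was the most scattered, holding both the lowest male value and one of the highest, so that all male groups overlapped. Against male WT PBS, the log2 fold change of Reln was -0.48 (SE 0.276) in male WT Tau and -0.45 (SE 0.276) in male KO PBS. It was -0.46 (SE 0.276) in the double-hit group. These comparisons share the same control libraries, and none passed the test (edgeR adjusted p of 0.9999, 0.999 and 0.825). The 95% interval for the double-hit group against WT PBS, -1.06 to 0.15, leaves room for a large fall or a small rise. In bulk tissue, fewer cells of a type and less RNA per cell cannot be told apart.

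Within tau-injected males the mean of Reln in KO and WT was nearly equal, with a log2 fold change of 0.03 (SE 0.276), and within KO males tau and PBS were as close, at -0.01 (SE 0.276). The genotype by treatment interaction was 0.47 (SE 0.391, edgeR adjusted p = 0.996). Averaged over the 3 strata, KO against WT was -0.09 (SE 0.163, edgeR adjusted p = 0.987).

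Single libraries moved these values. Male KO Tau against male WT PBS was -0.17 without 711 and -0.79 without 712 (adjusted p = 0.742 and 0.582). Under Tau, male KO against WT was 0.32 without 711, -0.31 without 712 and -0.05 without male WT Tau 772. Within KO males, tau against PBS was 0.28 without 711, -0.35 without 712 and 0.02 without either male KO PBS 752 or 753. None of these fold changes passed the test.

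The interaction was 0.76 without 711 (adjusted p = 0.560) and 0.13 without 712 (adjusted p = 0.986). Leaving out 711, 713 and male KO PBS 752 together, a choice made after seeing the data, left 712, the one with the highest Reln, as the lone double-hit library, which is then assumed to vary like the other groups. With that choice male KO Tau against male WT PBS was 0.05 and the interaction 1.004, neither of which passed the test. The averaged genotype effect was 0.07 without those 3 libraries and 0.00465 without 711 alone. Library 711, the male library with the lowest Reln, also had the lowest male sum of inhibitory neuron markers and the highest male sum of astrocyte markers, as given further below. The double-hit libraries also differed in neocortex markers, at 132.1 CPM in 711, 404.3 CPM in 712 and 363.1 CPM in 713. Their dentate sums were 433.4, 196.1 and 227.8 CPM. Male KO PBS 752, with the highest neocortex sum (476.7 CPM), had 64.7 CPM of Reln. The part of these marker differences in Reln was not tested.

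Reln was lower in the female than in the male libraries under Tau. It measured 34.6 and 41.2 CPM in female WT Tau (331 and 341) and 47.8, 29.1 and 44.5 CPM in female KO Tau (314, 324 and 325). All 5 female values lay below every male Tau value except that of 711. Averaged over genotypes under Tau, the female minus male log2 fold change was -0.77 (SE 0.219, edgeR adjusted p = 0.0298). DESeq2 gave -0.76 (adjusted p = 0.00546). The call was lost when any of 7 of the 11 Tau libraries was left out, female 324, 325 and 331 and male 712, 713, 771 and 773, with adjusted p from 0.0550 to 0.126, while the fold change stayed between -0.89 and -0.58. Without 711 and 713, which removes the male Tau library with low Reln and leaves 712 as the lone male KO Tau library, it was -0.9997. Between female KO and female WT, Reln differed by 0.14 (SE 0.324).

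The 5 female libraries and 711, which had the lowest Reln, also had the lowest sums of inhibitory neuron markers. The summed level of 10 such markers (Gad1, Gad2, Slc32a1 and others), all detected in every library, was 618 to 817 CPM in the 5 female libraries and 1068 to 1671 CPM in the males other than 711, which stood at 775 CPM with the female libraries. Among the other males, 752 had the highest sum with 64.7 CPM of Reln, and 791 and 792 had sums of 1219 and 1221 CPM with 105.8 and 63.3 CPM of Reln. Male KO PBS 751 had both the lowest sum (1068 CPM) and the lowest Reln (56.4 CPM) of these males. Male KO Tau 712 had a sum of 1332 CPM with 91.4 CPM of Reln. Whether the sum and Reln went together among these males was not tested. Of these 10 markers, 9 were lower in females than in males under Tau and 6 were called. Astrocyte markers went the other way, at 2403 to 4095 CPM in the females, 2454 CPM in 711 and 978 to 1733 CPM in the other males. Endothelial markers were also higher in the females, at 285.1 to 356.8 CPM against 117.8 to 250 CPM in the males, with 5 of 6 called under Tau. All 6 neocortex markers were lower in females under Tau and 3 were called. All 6 thalamus markers were higher in females under Tau and 2 were called (median log2 fold change 1.16). Their sum was 200.8 to 390.7 CPM in female 331, 341, 324 and 325, but 64.87 CPM, the lowest of all libraries, in female 314. In this comparison 23.8% of all genes were called.

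The sum of 7 Cajal-Retzius markers ran from 22.1 to 89.8 CPM over the libraries. The 2 libraries of female WT Tau (41.44 and 89.84 CPM) lay above male KO PBS (24.72 to 38.85 CPM) and male KO Tau (27.57 to 36.53 CPM). All other pairs of groups overlapped. In female against male under Tau, 5 of the 7 were higher and 2 lower, with 3 called and a median log2 fold change of 1.52, opposite in sign to Reln. In that comparison 23.8% of all genes were called. Averaged over strata, 6 of the 7 were lower in KO than in WT and 1 was higher, with a median of -0.38. Of the 5 tested in males, 4 were lower and 1 higher in the double-hit comparison (median -0.38). Under Tau, all 5 were lower in male KO than in male WT (median -0.324). None was called in these genotype and double-hit comparisons. Most of the Cajal-Retzius sum came from Calb2 and Ndnf, which interneurons also express. Of the more specific markers, Trp73 had a median of 2.58 CPM and Lhx1 and Lhx5 fell to 0 in some libraries. The part of cell composition in the differences in Reln was not tested.

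**Figure D3:**
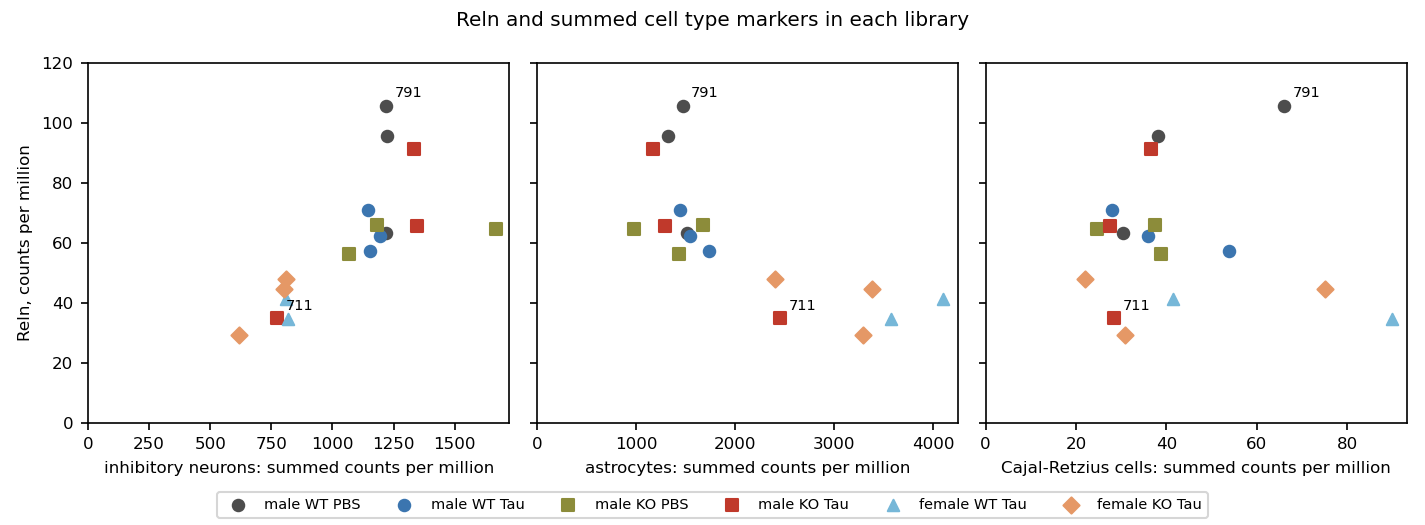
Reln (CPM) against the summed CPM of markers of inhibitory neurons, astrocytes and Cajal-Retzius cells in each of 17 libraries. The 5 female libraries and male KO Tau 711 share low Reln, low inhibitory neuron sums (618 to 817 CPM) and high astrocyte sums (2403 to 4095 CPM). Their Cajal-Retzius sums overlap those of the other libraries.

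The receptors varied little. Vldlr lay between 79.1 and 105.0 CPM in all libraries, and Lrp8 between 65.2 and 82.2 CPM. Vldlr measured 94.1, 91.2 and 84.8 CPM in male WT PBS, 89.6, 101.6 and 93.3 CPM in male WT Tau, 105.0, 88.0 and 82.1 CPM in male KO PBS and 85.3, 80.6 and 90.1 CPM in male KO Tau. It measured 79.1 and 91.4 CPM in female WT Tau and 96.7, 91.2 and 92.8 CPM in female KO Tau, and all groups overlapped with male WT PBS. For Vldlr, male KO Tau against male WT PBS was -0.07 (SE 0.105, 95% interval -0.30 to 0.16), and the genotype effect averaged over strata was 0.05 (SE 0.0659, interval -0.10 to 0.19). Female against male under Tau was -0.07 (SE 0.0798) for Vldlr, and the sex by genotype interaction was 0.31 (SE 0.16, adjusted p = 0.978).

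Among the members, Lrp8 gave the only difference between tau and PBS with an unadjusted p under 0.05, which did not pass the FDR. It measured 81.9, 75.6 and 72.2 CPM in male WT PBS and 65.2, 70.6 and 73.0 CPM in male WT Tau. It measured 74.2, 77.6 and 76.9 CPM in male KO PBS and 76.4, 65.9 and 70.7 CPM in male KO Tau. Tau libraries tended lower in both genotypes, though 1 library in each tau group lay within the range of its PBS group. The log2 fold change of tau against PBS was -0.15 in WT (SE 0.0826) and -0.15 in KO (SE 0.0825). Averaged over genotypes it was -0.15 (SE 0.0584, edgeR adjusted p = 0.888). It was -0.20 without 711, 713 and 752, with 1 double-hit library left, and did not pass the test there either. Lrp8 was 82.2 and 74.1 CPM in female WT Tau and 77.3, 70.4 and 77.7 CPM in female KO Tau, and the female minus male difference under Tau was 0.06 (SE 0.0739). Male KO Tau against male WT PBS was -0.10 (SE 0.0826), and the averaged genotype effect 0.03 (SE 0.0508).

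Dab1, the adaptor on which receptor signalling depends, showed no difference that passed the test. Group means lay between 128.8 CPM in female WT Tau and 140.8 CPM in male WT Tau, while single libraries ran from 109.5 CPM (male KO PBS 752, the library with high striatal markers) to 170.5 CPM (female KO Tau 314). Dab1 measured 146.9, 135.8 and 131.1 CPM in male WT PBS, 145.0, 142.7 and 134.7 CPM in male WT Tau, 150.9, 109.5 and 126.7 CPM in male KO PBS and 153.3, 125.6 and 115.6 CPM in male KO Tau. It measured 118.8 and 138.8 CPM in female WT Tau and 170.5, 122.8 and 122.9 CPM in female KO Tau. All groups overlapped, and KO groups were the more scattered, with SDs of 20.8, 19.5 and 27.5 CPM in males given PBS, males given tau and females, against 8.12, 5.42 and 14.2 CPM in the matching WT groups. Whether the spread differed between genotypes was not tested. Male KO Tau against male WT PBS was -0.06 (SE 0.132, 95% interval -0.35 to 0.23) and turned to 0.03 without 713. The averaged genotype effect was 0.02 (SE 0.0968) and turned negative, at -0.05 to -0.03, without 1 of male 751 or 711 or female 314 or 331, and female against male under Tau was -0.09 (SE 0.126).

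Crkl separated the male genotypes at every library, by a small margin and without passing the FDR. It measured 67.4, 66.8 and 68.3 CPM in male WT PBS and 66.5, 68.7 and 63.9 CPM in male WT Tau. It measured 60.2, 55.8 and 60.9 CPM in male KO PBS and 52.6, 59.1 and 57.7 CPM in male KO Tau. All 6 male KO values were below all 6 male WT values, with means of 57.7 ± 3.09 and 66.9 ± 1.70 CPM (SD, n = 6 each), and the same held after TMM scaling, with 63.4 CPM the highest KO and 64.5 CPM the lowest WT value. Of 15098 genes, 0.358% were lower in KO with no overlap in this way. The share higher in KO is not given, and this split of PBS and tau males pooled was not among the planned comparisons. Marker content also varied among the male libraries, with 0 markers called between genotypes. Under Tau, all 7 dentate granule cell markers were lower in KO (median log2 fold change -0.509) and all 6 neocortex markers higher (0.663). The KO libraries differed from each other. The dentate sum was 433.4 CPM in 711, 196.1 in 712 and 227.8 in 713, against 331.4 to 400.5 in male WT Tau. The neocortex sum was 132.1, 404.3 and 363.1 CPM, against 164.5 to 253.5. Under PBS, 4 dentate markers were lower and 3 higher, and 1 neocortex marker was lower and 5 higher. The part of cell composition in the Crkl difference was not tested.

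The fold changes of Crkl were correspondingly small. Against male WT PBS, male KO PBS was -0.14 (SE 0.0709, edgeR adjusted p = 0.999) and male KO Tau was -0.25 (SE 0.071, edgeR adjusted p = 0.783). Under Tau, male KO against WT was -0.21 (SE 0.0709, edgeR adjusted p = 0.927). Groups that did not overlap, with KO lower, were found in 9.39%, 8.11% and 8.76% of genes in these 3 comparisons, so separation of 3 libraries from 3 was common. These 3 differences kept their sign under every alternative run. Without 711, 713 and 752 they were -0.11, -0.20 and -0.17, the last 2 resting on 1 double-hit library, and none passed the test.

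In the female libraries Crkl overlapped between genotypes. It measured 60.4 and 61.1 CPM in female WT Tau and 60.4, 64.4 and 63.7 CPM in female KO Tau. Female KO against WT was 0.10 (SE 0.0969, 95% interval -0.11 to 0.31). The sex by genotype interaction, which tests the difference between the sexes, was 0.31 (SE 0.13, edgeR adjusted p = 0.978). Averaged over the 3 strata the genotype effect on Crkl was -0.08 (SE 0.0441, adjusted p = 0.987), and female against male under Tau was -0.05 (SE 0.0649).

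Crk, the paralog of Crkl, did not follow it. It measured 198.3, 193.2 and 184.6 CPM in male WT PBS, 233.2, 201.8 and 197.2 CPM in male WT Tau, 206.7, 180.9 and 174.5 CPM in male KO PBS and 204.4, 183.1 and 169.6 CPM in male KO Tau, and all male groups overlapped. Male KO Tau against male WT PBS was -0.04 (SE 0.107) and 0.02 without 713, and the averaged genotype effect was -0.06 (SE 0.0633). In females it measured 262.9 and 250.7 CPM in WT Tau and 212.9, 247.6 and 257.4 CPM in KO Tau, above every male value except that the lowest female library lay below male WT Tau 771.

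Crk was higher in females than in males under Tau by 0.26 on the log2 scale (SE 0.0858, edgeR adjusted p = 0.0493), and DESeq2 gave 0.27 (adjusted p = 0.0136). The call lay just inside the threshold and held with 2 of the 11 libraries left out in turn (female 314 and male 711) and was lost with the other 9, with adjusted p from 0.0534 to 0.135. It was also lost with no filter on low counts (adjusted p = 0.0646) and after removal of the trend on exon length (adjusted p = 0.0591). The ratio of Crk to Crkl per kilobase was 4.51 ± 0.188 in female WT Tau (SD, n = 2) and 4.06 ± 0.277 in female KO Tau (SD, n = 3). In the tau-injected males it was 3.39 ± 0.316 in WT (SD, n = 3) and 3.53 ± 0.54 in KO (SD, n = 3, up to 4.14). The KO groups overlapped between the sexes. The WT groups did not, but this sets 2 libraries against 3, and how often other pairs of genes separate in this way was not computed. In male WT PBS the ratio was 3.03 ± 0.136.

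**Figure D4:**
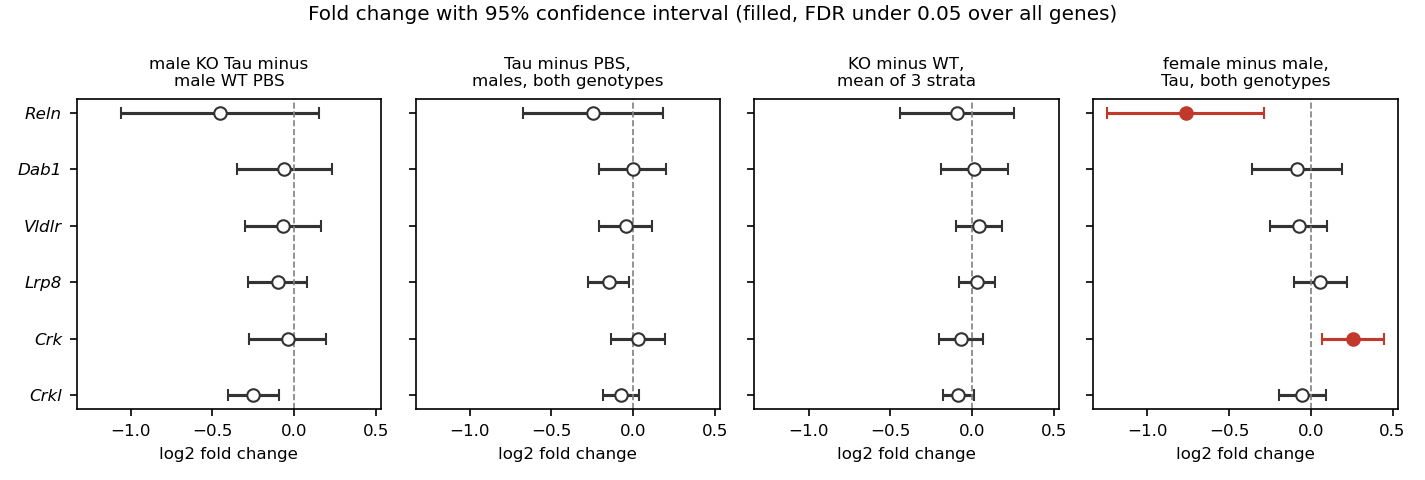
Log2 fold changes with 95% confidence intervals for the 6 genes in 4 comparisons, filled where the FDR over all genes was under 0.05. Reln (-0.77) and Crk (0.26) are filled in female against male under Tau, and Crkl lies below 0 in the double-hit comparison (-0.25) without passing the FDR.

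The genes whose variation within groups was most like that of each member were listed by Pearson r of log2 CPM over 17 libraries among 14076 genes, as a description, since all genes of a library share its tissue, depth and RNA quality. Reln was most like Dpysl4 (r = 0.933), Slc35f1 (0.933) and Ptprf (0.93). Dab1 was most like Zmynd11 (0.944), Cep68 and Rasgef1a (both 0.924), Vldlr most like Nsd1 (0.941), Cdk12 (0.935) and Mycbp2 (0.906), and Lrp8 most like Mapkapk5 (0.916), Atxn7l2 (0.91) and Fnbp4 (0.892). Crk was most like Ube2w (0.96), Haus2 (0.925) and Otud6b (0.907), and Crkl most like Hsp90ab1 (0.955), Prpf6 (0.935) and Fam174b (0.932). None of the members was among the 3 genes nearest to another. Between members the highest r was 0.608, for Dab1 and Vldlr, and the lowest was -0.629, for Lrp8 and Crkl.

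The wider pathway was described with 44 further genes in 6 roles, all of which passed the filter. In the 10 comparisons other than sex, 0 of 44 were called. At an unadjusted p under 0.05, between 1 and 5 of them passed in each of these 10, against 1.86% to 7.95% of all genes. In the double-hit comparison of male KO Tau with male WT PBS, 4 of 44 passed, 2 higher and 2 lower, against 6.33% of all genes. Among these 4, Rnf7, a subunit of the ligase that removes phosphorylated Dab1, was 0.35 (SE 0.117). Adamts3, a protease that cleaves reelin, was -0.38 (SE 0.151), and Apoe, an alternative ligand of the receptors, was 0.48 (SE 0.20). Rnf7, Adamts3 and Apoe each had edgeR adjusted p = 0.783. Averaged over strata, KO against WT was 0.16 (SE 0.0675) for Rapgef1, the exchange factor recruited by Crk and Crkl, and 0.15 (SE 0.0654) for Akt1, each with edgeR adjusted p = 0.987. They were among the 3 of 44 genes with an unadjusted p under 0.05 there, 2 higher and 1 lower, against 4.18% of all genes, and the median over the 44 was 0.0289 against -0.000227 over all genes tested.

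Between females and males under Tau, 13 of 44 pathway genes were called, where 23.8% of all genes were. Among other ligands of the receptors, 1 of 4 was called: Selenop (row Sepp1 of the table), a selenium carrier taken up through Lrp8, was 1.26 higher in females (SE 0.182, edgeR adjusted p = 0.00356), at 419.2 to 781.2 CPM against 196.5 to 296.1 CPM in tau-injected males. Of 4 reelin-cleaving proteases, 1 was called, Adamts2, with a log2 fold change of -0.65 (SE 0.168). Of 10 membrane partners, 4 were called: Ephb2 (-0.77), Efnb2 (-0.74) and App (-0.56) were lower, and Itgb1 (0.36), a subunit of the integrin that binds reelin, was higher. Of 3 Src family kinases, Yes1 was called (0.78), and Fyn was not (-0.16, adjusted p = 0.126). Downstream of Dab1, 5 of 15 were called, the small GTPases Rap1a (0.48) and Rap1b (0.35) higher and Pik3r2 (-0.45), Nck2 (-0.38) and the actin regulator Cfl1 (-0.36) lower. The shift in astrocyte and interneuron markers between these libraries moved with the same comparison, and its part was not tested.

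**Figure D5:**
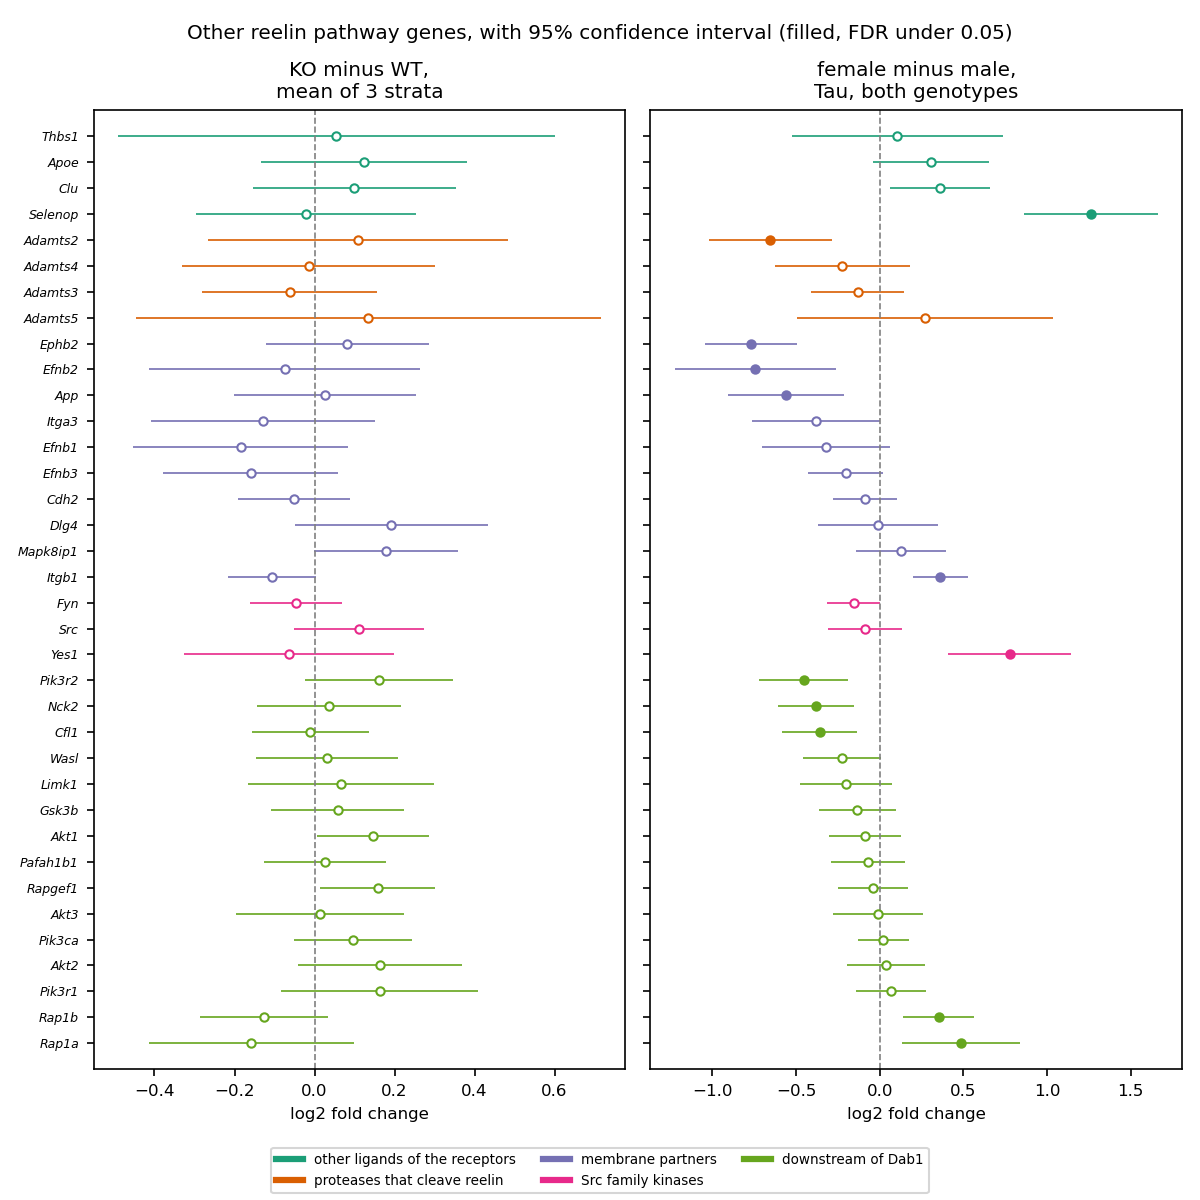
Log2 fold changes with 95% confidence intervals of 36 further reelin pathway genes in 5 roles, coloured by role, for KO against WT averaged over 3 strata and for female against male under Tau, filled where the FDR over all genes was under 0.05. In the genotype comparison 0 of 36 are filled, and in the sex comparison 12 of 36, from Selenop at 1.26 to Ephb2 at -0.77.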

How the data were processed

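Poly(A) RNA of dorsal hippocampus was sequenced in 17 libraries of 6 groups taken from the sample labels. The authors aligned reads with STAR 2.5.2 to mm10 (GRCm38) and counted them over exons with HTSeq 0.9.1 in reverse-stranded mode. The authors deposited unnormalized whole-number counts, 1 row for each gene symbol, and the annotation release behind them is not given in the sources used here. Their own comparisons of males used DESeq2.

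Here edgeR 4.0.16 under R 4.3.3 gave the quasi-likelihood tests (TMM factors, from 0.94 to 1.08, filterByExpr with minimum count 10 and minimum total 15, Benjamini-Hochberg over all genes at 0.05, two-sided). Contrasts among males came from 1 fit of 12 libraries (15098 genes), contrasts with females from 1 fit of 11 Tau libraries (15419 genes) and the genotype average from all 17 (15594 genes). The SE was the log2 fold change divided by the root of F. CPM used total counts. Likeness used log2 CPM with a prior count of 2, as deviations from group means, among genes of at least 1 CPM. No pair among 136 pairs of libraries agreed within sampling noise (smallest chi-square per gene 3.6). Only the fit of the male libraries was run on simulated counts, with changes placed in male KO Tau. The simulation did not copy the differences in marker content between libraries.

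Alternatives were RLE factors, DESeq2 1.42.0, no filter on low counts, only the groups compared, all 17 libraries, removal of each library's trend on exon length (spline with 5 degrees of freedom), and each replicate left out. The study gives 1 library fewer for male KO Tau without naming it, and leaving out 711 is an assumption. Leaving out 752, 711 and 713 together, and DESeq2 on the males without 711 for the interaction and averages, were added after seeing the data.

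Members were always named, with Acss2. Pathway genes were named where called, apart from some that are not reported here, and otherwise by lowest unadjusted p in the averaged genotype comparison. Rnf7, Adamts3 and Apoe in the double-hit comparison were chosen after their values were seen. Promoter motifs were chosen from families the study scanned, with a GC box and an E-box added. The members and all gene lists were chosen with earlier results of these data known.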

Additional observations from a re-analysis of the deposited data

How the results depend on the processing

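The 10 comparisons with 0 members called kept 0 under all 158 alternatives, and of 1050 alternative fold changes of the members 81 had the other sign, spread over 28 of 66 fold changes, the largest of which was -0.46. In female against male under Tau, 2 members were called, 1 with every gene of at least 1 count, 1 with the exon length trend removed, and 0 to 2 with 1 library left out. Reln in male KO Tau against male KO PBS (-0.01) was 0.14 with the exon length trend removed, 0.28 by edgeR and 0.28 by DESeq2 on only these groups without 711, 0.53 without the 3 libraries that stand apart, and -0.35 to 0.28 with 1 library left out. With 1 library left out, Reln in male KO Tau against male WT Tau ran from -0.31 to 0.32, Dab1 in the double-hit comparison from -0.192 to 0.0265, Crk in the same comparison from -0.123 to 0.0225, and the averaged genotype effect from -0.205 to 0.00465 for Reln and from -0.054 to 0.0647 for Dab1. Without the 3 libraries that stand apart, where 1 double-hit library is left and is assumed to vary like the other groups, the double-hit comparison was 0.0471 for Reln, and the averaged genotype effect was 0.0666 for Reln and -0.0136 for Lrp8. Where a library was left out, its group was also smaller, and the causes of these shifts were not tested. TMM scaling moved 33 of 36 group levels by less than 1 SD. No paired analysis was possible because no replicate number is shared between groups. With 2 or 3 libraries a group, the intervals of Reln leave changes of about 1 on the log2 scale undetected, while those of Crkl and Lrp8 are several times narrower.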
